A study of Mus musculus with 12 samples.

Results

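NF-κB is a family of transcription factors that is kept idle in the cytoplasm by inhibitor proteins of the IκB family. When a receptor for an inflammatory signal is engaged, the IκB kinase marks the inhibitor for destruction, and the freed NF-κB dimer enters the nucleus and turns on genes for chemokines, adhesion molecules and cytokines. Among the genes it turns on are its own inhibitors, so the pathway carries its brakes within it. The ligand-bound glucocorticoid receptor is known to restrain NF-κB target genes in many cells. The mineralocorticoid receptor belongs to the same class of steroid receptors, and the paper describes it as acting on many genes that promote fibrosis and inflammation. In skeletal muscle NF-κB is best known for its activity in injury, inflammation and wasting.

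The genes described here were 10 core genes of this pathway, chosen by name from 28995 genes present in at least 1 of 3 deposited tables, of which 25133 were in all 3. They were the subunits Nfkb1, Nfkb2, Rela and Relb, the inhibitors Nfkbia, Nfkbib and Nfkbiz, the feedback brakes Tnfaip3 and Tnip1, and the kinase gene Ikbkb. All 10 were found in every table, and all 10 had a mean of at least 10 normalized counts in each. The rule goes by name and uses no measured value, but the members were chosen with earlier results of these data known.

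The cells were primary fibroblasts of hindlimb skeletal muscle from 3-day-old wild-type C57BL/10 mice. Every group was kept in medium with charcoal-stripped serum, which lacks endogenous steroids, and was then treated for 48 hours with 1 µM aldosterone, the mineralocorticoid receptor agonist, with 1 µM spironolactone, an antagonist of that receptor, or with the vehicle DMSO. Poly(A) RNA was sequenced in 4 libraries per treatment, which came from 2 mice with replicate plates of each. P-values of the main fit, which has no block, thus measure the spread between plates and between 2 mice. Cells of each mouse were pooled before plating, and the fibroblasts were purified by adherence. Libraries are named here by their sample number and biological replicate number, such as 1_1, but which number marks the mouse is not stated in the labels.

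Reads on genes numbered 19136923 to 30219185 per library, with a median of 23833379.5, and the aldosterone median of 25826277 was above those of vehicle (22966221) and spironolactone (23023848.5). Summed levels of 10 fibroblast markers were 69632 to 74566 CPM (reads scaled to the library total) with vehicle, 59133 to 65845 with aldosterone and 65656 to 71295 with spironolactone. Col1a1, Fn1 and Col1a2, at 23946, 20985.5 and 15660 CPM on average with vehicle, made up most of that sum. Pdgfra (132 CPM on average with vehicle and 249 with aldosterone), Vim (5704 and 7998) and S100a4 (15.1 and 24.4) were called higher. Col3a1 (4804 and 3587) was called lower, and with the block on the sample number 3 of the 10 were higher and 7 lower. Macrophage markers, 7 of 10 with a value in every library, summed to 12.9 to 15.4, 14.0 to 15.6 and 12.3 to 15.7 CPM, with Adgre1 at 0 in 10 libraries and Ptprc at 0 in 8. Reads in every library were found for Lyz2 (6.92 CPM on average with vehicle), Csf1r (2.27), Cd14 (2.25), Mrc1 (1.51) and Cd68 (1.00). Cd14, at 3.64 CPM on average with aldosterone, was the 1 macrophage marker called higher against vehicle, and 0 were called lower. Summed endothelial markers, all 6 measured, were 20.1 to 22.6 CPM with vehicle, 29.0 to 32.0 with aldosterone and 19.8 to 21.7 with spironolactone, of which Kdr (1.89 CPM on average with vehicle and 7.06 with aldosterone, called higher) and Tek (18.6 and 22.0 CPM, called only with the block on the sample number) made up most. Among the others, Cdh5 averaged 0.399 and 0.640 CPM and Pecam1 0.276 and 0.1202 CPM. Summed myogenic markers, 5 of 8, were 22.0 to 32.5 CPM with vehicle, 8.90 to 18.9 with aldosterone and 22.3 to 36.0 with spironolactone. Acta1 (22.6 CPM on average with vehicle and 9.94 with aldosterone, called lower) made up most of that sum. The part of these other cell types in the results was not tested, and in bulk RNA fewer cells of a type and less RNA per cell cannot be told apart.

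In vehicle-treated fibroblasts the levels of the 10 genes spanned a wide range when set per kilobase of gene length. Rela, which encodes the main transactivating subunit p65, was at 28.3 ± 1.73 CPM per kilobase (SD, n = 4). Nfkbia, which encodes IκBα, the inhibitor that holds p65 in the cytoplasm, followed at 18.9 ± 0.905. These were the highest of the 10 per kilobase, and their libraries did not overlap with each other or with the next gene. The order depends on the gene lengths used, which ran from 1.61 kilobases for Nfkbia to 19.078 for Ikbkb. Before division by length, Nfkbia averaged 30.4 CPM with vehicle, below Nfkb1 (64.1), Nfkb2 (55.2), Tnip1 (39.6) and Ikbkb (39.2). Nfkb2, the precursor of p52 in the non-canonical branch, was at 12.0 ± 0.448 CPM per kilobase and overlapped in its libraries with Tnip1, a partner of the brake A20, at 11.2 ± 0.375. These were the only neighbours in the order whose libraries overlapped. Below them came the inhibitor gene Nfkbib at 8.56 ± 0.491, Relb, the partner of p52, at 6.52 ± 0.605, and Nfkb1, the precursor of p50, at 5.32 ± 0.303. The lowest levels per kilobase were those of Nfkbiz (2.60 ± 0.152), Ikbkb (2.05 ± 0.117) and Tnfaip3 (1.03 ± 0.185). Tnfaip3, which encodes the ubiquitin-editing brake A20, had 137 to 211 reads per vehicle library and a coefficient of variation of 18.0% within vehicle, the largest of the 10 in that group.

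**Figure D1:**
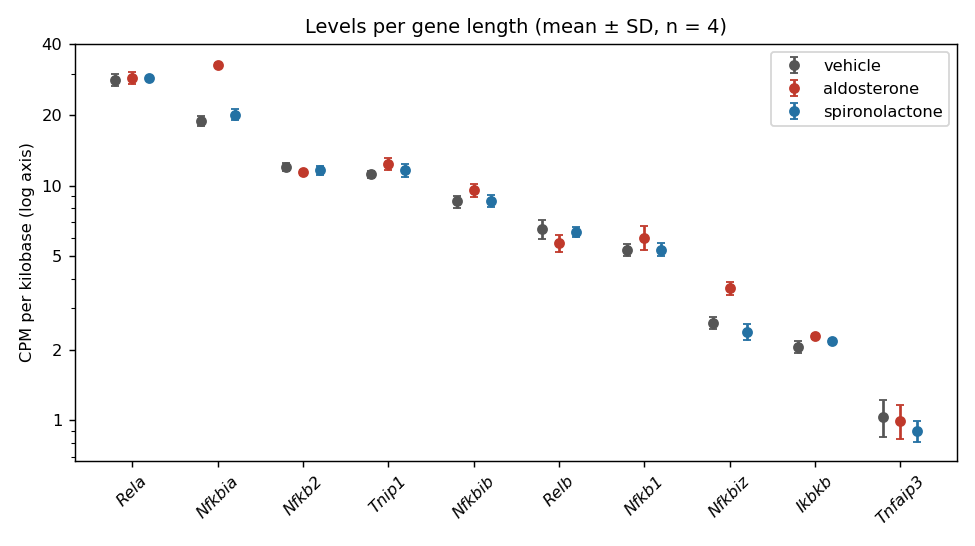
Mean level per kilobase of gene length of each of the 10 genes (CPM per kilobase, log axis), with SD over 4 libraries, in vehicle (grey), aldosterone (red) and spironolactone (blue). Rela leads in vehicle at 28.3 and Tnfaip3 is lowest at 1.03, and Nfkbia moves from 18.9 in vehicle to 32.6 in aldosterone.

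Nfkbia rose with aldosterone. The gene (ENSMUSG00000021025, protein-coding, mm39 chr12:55536195-55539432, minus strand) was at 31.9, 28.9, 29.4 and 31.3 CPM in vehicle libraries 1_1, 1_2, 2_1 and 2_2. It was at 51.8, 51.9, 54.2 and 52.2 CPM in the corresponding aldosterone libraries, and at 31.2, 31.4, 34.9 and 31.8 in those of spironolactone. Every aldosterone library stood above every library of the other treatments, which overlapped with each other. In normalized counts the means were 1248 ± 28.9 with aldosterone and 724 ± 33.3 with vehicle (SD, n = 4), a ratio of 1.72 and a log2 fold change of 0.79 (SE 0.060, 95% confidence interval 0.66 to 0.91). With limma and Benjamini-Hochberg adjustment over 27319 genes, the adjusted p was 1.33e-07.

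Rela, which encodes the subunit that IκBα holds back, was not called. The gene (ENSMUSG00000024927, mm39 chr19:5687511-5698158, plus strand) was at 91.4, 87.1, 79.4 and 89.9 CPM in the vehicle libraries, 89.4, 93.2, 91.0 and 80.4 in the aldosterone libraries and 87.5, 88.2, 89.7 and 89.0 in the spironolactone libraries. All 3 groups overlapped, and the log2 fold change between aldosterone and vehicle was 0.02 with a confidence interval from -0.11 to 0.16 (limma adjusted p 0.904). The ratio of Nfkbia to Rela, each per kilobase, was 0.668 ± 0.0304 in vehicle (0.633 to 0.707), 1.14 ± 0.0744 in aldosterone (1.06 to 1.24) and 0.696 ± 0.0312 in spironolactone. With vehicle and spironolactone, Nfkbia mRNA was thus below Rela mRNA per unit length in every library, and with aldosterone it was above it in every library. That order depends on the gene lengths used. Before division by length, Nfkbia was below Rela in every library, at 51.8 to 54.2 CPM against 80.4 to 93.2 with aldosterone.

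Nfkbiz, which encodes the nuclear inhibitor family member IκBζ that binds NF-κB dimers on DNA and can also help to activate secondary genes, was the other member that rose. The gene (ENSMUSG00000035356, mm39 chr16:55631738-55659262, minus strand) was at 12.7, 13.0, 12.4 and 14.1 CPM in the vehicle libraries, at 18.1, 16.8, 19.4 and 18.9 in the aldosterone libraries and at 11.2, 11.1, 12.4 and 13.1 in the spironolactone libraries. The lowest aldosterone library was above the highest of both other groups. Mean normalized counts were 435 ± 26.9 against 311 ± 16.7 in vehicle, a ratio of 1.39 and a log2 fold change of 0.48 (SE 0.081, confidence interval 0.31 to 0.65, limma adjusted p 0.000704).

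**Figure D2:**
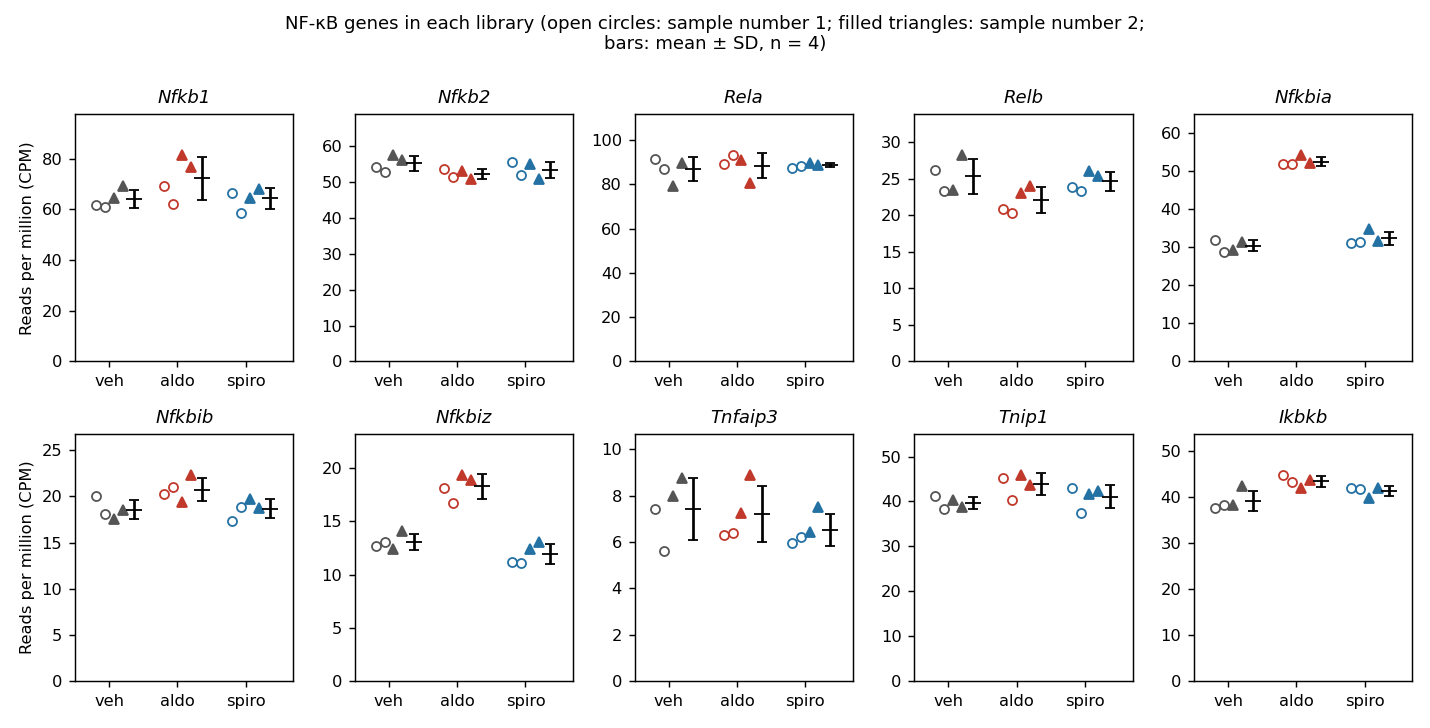
CPM in each of the 12 libraries for the 10 genes, with open circles for sample number 1, filled triangles for sample number 2, and a bar for the mean ± SD of 4 libraries in vehicle (veh), aldosterone (aldo) and spironolactone (spiro). The 4 aldosterone libraries sit between 51.8 and 54.2 for Nfkbia and between 16.8 and 19.4 for Nfkbiz, above all others, while for the remaining 8 genes the aldosterone and vehicle libraries overlap.

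Of the 10 genes, 2 were thus called higher and 0 lower in aldosterone against vehicle at an adjusted p of at most 0.05, while 5.68% of all genes tested were called higher and 4.74% lower. The members averaged 10 or more normalized counts, and among the 15245 genes at or above that mean 9.65% were called higher and 8.09% lower. The libraries of the groups did not overlap for 2 of 10, against 14.5% of all genes and 23.5% of those with the mean of 10. At an unadjusted p under 0.05 the count was 6 of 10, against 20.9% and 32.2%. The median log2 fold change of the 10 was 0.14, beside -0.01 over all genes. None of the 10 reached a log2 fold change of 1 together with the adjusted p, a pair of thresholds passed by 2.06% of all genes. Libraries with the same sample number deviated together, and with that number fitted as a block 3 of the 10 were called higher and 1 lower. The block takes out differences in level between sample numbers, and its p-values measure only the spread that is left. If that number marks the mouse, they leave out the difference in level between the 2 mice. With the block 8.68% of all genes were called higher and 8.02% lower, and 14.8% and 13.7% of those with the mean of 10.

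Nfkb1 and Relb were the members that this block added. Nfkb1 (ENSMUSG00000028163, mm39 chr3:135290416-135397308, minus strand) was at 61.9, 61.1, 64.3 and 69.2 CPM with vehicle and 69.2, 62.1, 81.4 and 76.7 with aldosterone, a log2 fold change of 0.16 (confidence interval 0.00 to 0.33, limma adjusted p 0.238, and 0.0264 with the block). The aldosterone libraries of sample number 1 overlapped with those of vehicle, with a log2 difference of 0.09, and those of number 2 lay above them, with 0.23. Relb (ENSMUSG00000002983, mm39 chr7:19340142-19363363, minus strand) leaned the other way, at 26.3, 23.4, 23.5 and 28.2 CPM with vehicle and 20.8, 20.4, 23.1 and 24.0 with aldosterone. Its log2 fold change was -0.20 (confidence interval -0.37 to -0.03), with a limma adjusted p of 0.152 without the block and 0.0411 with it, and in Relb it was sample number 1 whose treatment groups did not overlap. With spironolactone, Nfkb1 was at 66.4, 58.7, 64.5 and 68.1 CPM and Relb at 23.9, 23.3, 26.1 and 25.4.

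The other 6 members were not called in either fit. Nfkb2 (ENSMUSG00000025225, mm39 chr19:46292759-46300824, plus strand) was at 52.8 to 57.5 CPM with vehicle, 50.8 to 53.7 with aldosterone and 50.9 to 55.6 with spironolactone, a log2 fold change of -0.08 against vehicle. Nfkbib (ENSMUSG00000030595, mm39 chr7:28457676-28466937, minus strand), which encodes IκBβ, was at 20.05, 18.1, 17.6 and 18.5 CPM with vehicle and 20.3, 21.0, 19.3 and 22.3 with aldosterone. Its aldosterone libraries lay above those of vehicle within each sample number but overlapped across them, and the log2 fold change was 0.15 (confidence interval -0.00 to 0.31, limma adjusted p 0.258). Nfkbib overlaps Sirt2 on the opposite strand, which had 2124 reads per library on average beside 474 for Nfkbib, and Nfkb2 overlaps Psd (220 reads beside 1304). The use of strand in counting was not given, so reads of these overlapping genes cannot be told apart here.

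None of the feedback brakes was called, nor was the kinase. Tnip1 (ENSMUSG00000020400, mm39 chr11:54801611-54853743, minus strand) was at 38.3 to 41.2 CPM with vehicle and 40.4 to 45.9 with aldosterone, a log2 fold change of 0.14 (confidence interval 0.00 to 0.27, limma adjusted p 0.218). Ikbkb (ENSMUSG00000031537, mm39 chr8:23149228-23196605, minus strand), the catalytic IκB kinase of the canonical branch, was at 37.7, 38.2, 38.2 and 42.5 CPM with vehicle and 44.9, 43.2, 42.0 and 43.7 with aldosterone. A single vehicle library, 2_2, reached into the aldosterone range of Ikbkb, and the log2 fold change was 0.15 (confidence interval 0.02 to 0.28). The adjusted p of Ikbkb was 0.173 with limma over all 8 libraries and 0.0402 without vehicle library 2_2. Tnfaip3 (ENSMUSG00000019850, mm39 chr10:18876658-18891405, minus strand) was at 7.42, 5.61, 7.99 and 8.75 CPM with vehicle and 6.32, 6.37, 7.23 and 8.90 with aldosterone, with a log2 fold change of -0.05 whose interval, -0.36 to 0.26, was the widest of the 10 in that comparison.

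**Figure D3:**
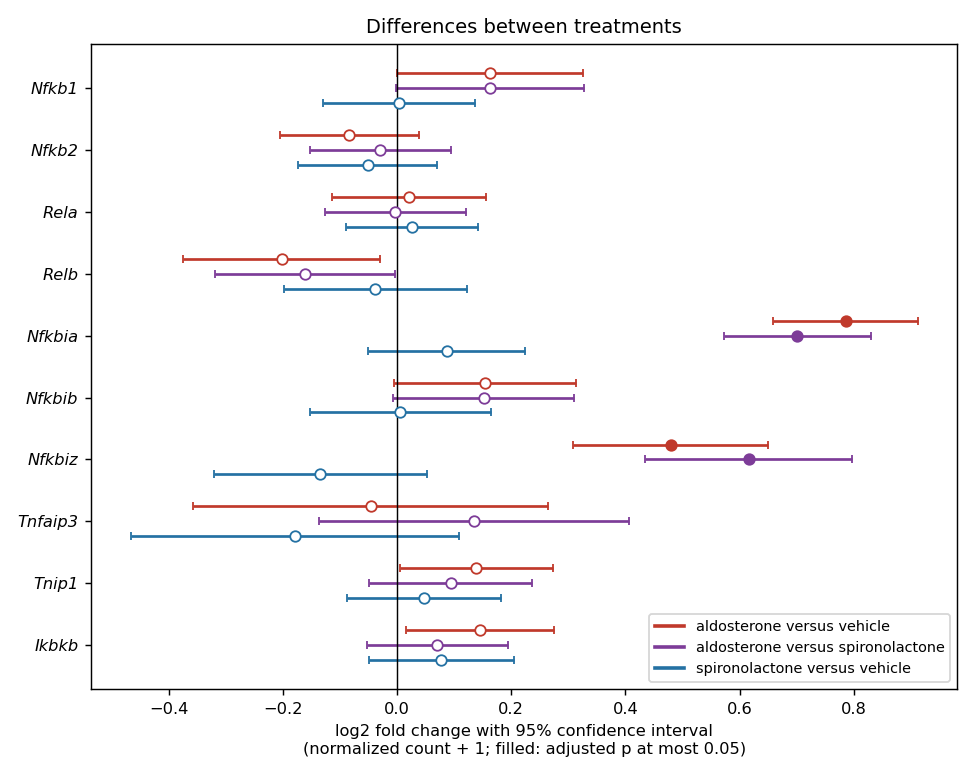
Log2 fold change with 95% confidence interval for each of the 10 genes in aldosterone against vehicle (red), aldosterone against spironolactone (purple) and spironolactone against vehicle (blue), with filled points at an adjusted p of at most 0.05. Only Nfkbia (0.79 and 0.70) and Nfkbiz (0.48 and 0.62) have filled points, both in the comparisons with aldosterone.

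Levels also differed between sample numbers. Tnfaip3 was higher in sample number 2 than in number 1 in all 3 treatments with no overlap, by 0.37 on the log2 CPM scale with vehicle, 0.34 with aldosterone and 0.19 with spironolactone. For Nfkbia the log2 differences between aldosterone and vehicle were 0.77 within sample number 1 and 0.80 within number 2, and for Nfkbiz they were 0.44 and 0.52. With Nfkbib these were the 3 of 10 genes above vehicle in both numbers, where 10.9% of all genes were (17.7% of those with the mean of 10), and 0 were below in both (11.2% and 18.0%).

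**Figure D4:**
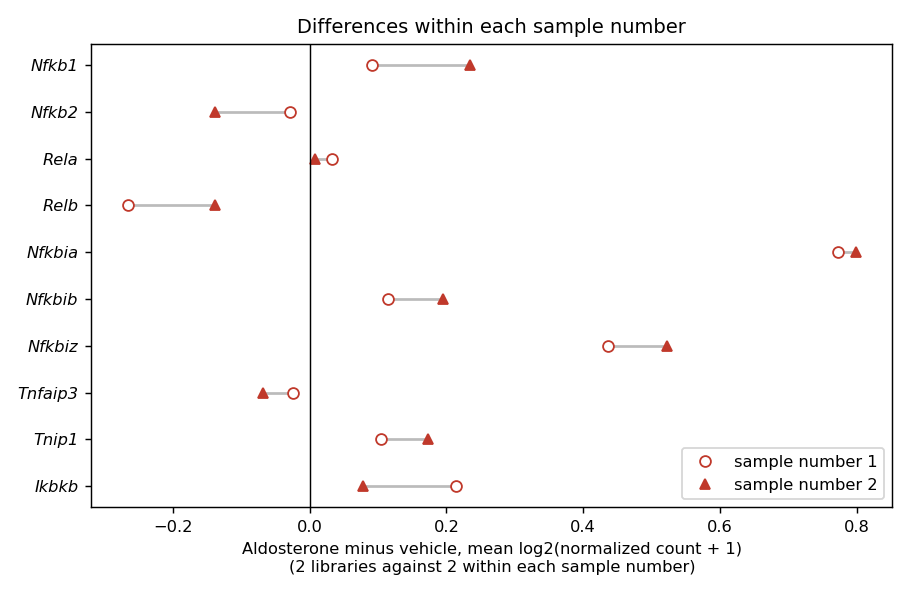
Difference in mean log2(normalized count + 1) between aldosterone and vehicle within sample number 1 (open circles) and sample number 2 (filled triangles), with 2 libraries per treatment in each. The points of Nfkbia lie at 0.77 and 0.80 and those of Nfkbiz at 0.44 and 0.52, while those of Rela and Tnfaip3 lie within 0.07 of 0.

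The promoters of these genes are of interest because NF-κB genes are known to be driven by NF-κB itself. Windows from 250 bases before to 50 after the transcription start, from RefSeq on GRCm38.p6, were at hand for 6 of the 10 genes, with 9 windows in all, and Nfkb1, Relb, Nfkbiz and Ikbkb had none. The NF-κB consensus of 10 bases, searched on both strands, was found in 6 of these 9 windows and in 4 of the 6 genes, and in 8.46% of 32851 windows of the same length. Nfkb2 held 3 of the 9 windows, each with a match. Of these, chr19:46305445-46305744 and chr19:46305680-46305979 overlap and share the match GGGACTTTCC. The windows are thus not independent, and the share of windows was not tested. The following show Nfkbia, which rose, beside 3 genes that hold a match and were not called. Coordinates are chr12:55492598-55492897 for Nfkbia, chr10:19015361-19015660 for Tnfaip3 and chr11:54962891-54963190 for Tnip1, all on the minus strand, and chr19:46304487-46304786 on the plus strand for Nfkb2. Each is written 5′ to 3′ with the matches in capitals.
Nfkbia: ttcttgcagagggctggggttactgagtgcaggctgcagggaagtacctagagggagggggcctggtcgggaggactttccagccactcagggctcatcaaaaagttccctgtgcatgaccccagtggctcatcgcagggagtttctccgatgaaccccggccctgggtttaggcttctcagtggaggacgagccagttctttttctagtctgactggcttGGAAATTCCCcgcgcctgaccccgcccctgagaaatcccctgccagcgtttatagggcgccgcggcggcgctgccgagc
Tnfaip3: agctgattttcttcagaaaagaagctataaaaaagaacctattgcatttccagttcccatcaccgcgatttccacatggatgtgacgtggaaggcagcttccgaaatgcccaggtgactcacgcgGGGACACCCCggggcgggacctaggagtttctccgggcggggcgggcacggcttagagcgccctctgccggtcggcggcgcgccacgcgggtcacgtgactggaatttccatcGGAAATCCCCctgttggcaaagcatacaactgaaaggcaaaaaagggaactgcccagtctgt
Tnip1: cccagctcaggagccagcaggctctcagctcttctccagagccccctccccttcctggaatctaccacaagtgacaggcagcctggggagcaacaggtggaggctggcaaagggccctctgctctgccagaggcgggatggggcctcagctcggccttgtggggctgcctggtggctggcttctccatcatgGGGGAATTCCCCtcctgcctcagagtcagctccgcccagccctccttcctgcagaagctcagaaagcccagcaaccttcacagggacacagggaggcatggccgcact
Nfkb2: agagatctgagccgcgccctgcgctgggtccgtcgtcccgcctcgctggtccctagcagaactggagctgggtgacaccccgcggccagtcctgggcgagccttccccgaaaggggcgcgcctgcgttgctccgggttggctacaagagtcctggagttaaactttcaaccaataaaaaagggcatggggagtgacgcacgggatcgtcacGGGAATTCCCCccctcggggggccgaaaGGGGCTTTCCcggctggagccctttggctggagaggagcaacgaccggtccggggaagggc

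In Nfkbia the match GGAAATTCCC stood from -29 to -20 relative to the start, and in Tnip1 the longer run GGGGAATTCCCC stood from -58 to -47. Tnfaip3 and Nfkb2 each held 2 separate runs in the printed window, and the longer run of Nfkb2, GGGAATTCCCC, holds overlapping matches. The palindrome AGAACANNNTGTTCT, the textbook element of steroid receptors, occurred in 0 of the 9 member windows and in 3 of all 32851 (0.00913%). Its AGAACA arm alone, on either strand, was in 1 of 9 windows, a further start of Tnfaip3, and in 19.0% of all windows. These are letters in a short window, and the genes with an NF-κB match ranged in log2 fold change from -0.08 in Nfkb2 to 0.79 in Nfkbia.

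The second comparison set aldosterone against spironolactone, agonist against antagonist at the same dose and time, and it used the same aldosterone libraries as the first. Nfkbia was again higher with aldosterone, at 1283 ± 29.4 normalized counts against 790 ± 42.2 (SD, n = 4), a log2 fold change of 0.70 (SE 0.061, confidence interval 0.57 to 0.83, limma adjusted p 3.76e-07). Nfkbiz was at 447 ± 27.6 against 292 ± 23.8, a log2 fold change of 0.62 (SE 0.086, confidence interval 0.43 to 0.80, limma adjusted p 8.83e-05). Neither gene overlapped between the groups, 2 of 10 members beside 13.0% of all genes and 21.0% of the 15300 with a mean of at least 10. These were the 2 of 10 called higher, with 0 lower, beside 4.93% and 3.96% of all genes and 8.39% and 6.78% of those with that mean.

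With the block on the sample number, 3 of 10 were higher and 0 lower, beside 7.58% and 6.8% of all genes and 13.0% and 11.7% of those with the mean of 10. The gene added was Nfkb1, with a log2 fold change of 0.16 (limma adjusted p 0.278 without the block and 0.0445 with it). Relb was at -0.16 (confidence interval -0.32 to -0.00, limma adjusted p 0.255), and its aldosterone libraries were below those of spironolactone within both sample numbers while overlapping across them. For Rela the log2 fold change was -0.00 (confidence interval -0.13 to 0.12) and for Nfkb2 it was -0.03. Nfkbib, Tnfaip3, Tnip1 and Ikbkb were at 0.15, 0.14, 0.09 and 0.07, each with an adjusted p of at least 0.29 by limma.

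The third comparison set spironolactone alone against vehicle, with the same vehicle libraries as the first and the same spironolactone libraries as the second. None of the 10 genes was called by limma without the block, as with all 27598 genes tested (0.0%), and 0 of 10 had an unadjusted p under 0.05 where 1251 of all genes (4.53%) did. In 0 of 10 did the groups stand apart without overlap, beside 2.63% of all genes and 3.41% of those with a mean of at least 10. Over all genes edgeR called 0 and DESeq2 called 12 higher and 1 lower, none of them a member. With the block on the sample number limma called 63 higher and 34 lower, and 0 of the 10 members. The log2 fold changes were 0.09 for Nfkbia (confidence interval -0.05 to 0.22), -0.13 for Nfkbiz (-0.32 to 0.05), 0.03 for Rela (-0.09 to 0.14) and 0.00 for Nfkb1 (-0.13 to 0.14). Tnfaip3 had the widest interval, from -0.47 to 0.11 around -0.18, and the smallest limma adjusted p over the 10 was 0.934 without the block.

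Around the 10 genes stood lists of the pathway's other parts, tested in the same fit of aldosterone against vehicle. Their counts stand beside 5.68% higher and 4.74% lower over all genes, or 9.65% and 8.09% over those with a mean of at least 10. With the block on the sample number these shares were 8.68% and 8.02%, or 14.8% and 13.7%. For short lists the counts describe single genes only. Of 6 other subunits and IκB family genes, 0 rose and 1 fell: Rel, the c-Rel subunit known mainly from lymphocytes, was at 254 ± 34.9 normalized counts against 376 ± 74.5 (log2 fold change -0.55, SE 0.13, limma adjusted p 0.0113). Of 10 kinases and their partners, 0 rose and 0 fell, with a median log2 fold change of -0.05. Of 18 adaptors and ubiquitin ligases, 0 rose and 2 fell, namely Traf3 (-0.31, SE 0.059, limma adjusted p 0.0021) and Traf5 (-0.37, SE 0.098, limma adjusted p 0.0208), both adaptors of TNF receptor family members, and Traf3 is known to hold back the non-canonical kinase. The other 16 were not called.

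Among the brakes and receptors, 4 genes were called. Of 12 brakes, 2 rose and 1 fell. Irak3, a pseudokinase that dampens Toll-like and interleukin-1 receptor signaling, was at 25.1 to 30.3 CPM with aldosterone, 14.7 to 16.1 with vehicle and 14.8 to 16.6 with spironolactone, with a log2 fold change of 0.84 against vehicle (SE 0.079, limma adjusted p 1.72e-06). Its aldosterone libraries stood apart from both other groups. Zc3h12a, an RNase that degrades inflammatory mRNAs, rose by 0.47 (SE 0.097, limma adjusted p 0.00411), and Rnf11, a partner of A20, was at -0.29 (SE 0.060, limma adjusted p 0.00389). Of 9 receptors measured among 10 listed, 1 rose: Il1rap, the shared co-receptor of the interleukin-1 family, at 47.0 to 50.6 CPM against 24.9 to 28.3 with vehicle (log2 fold change 0.84, SE 0.063, limma adjusted p 1.25e-07). With the block, brakes numbered 4 higher and 1 lower, with the deubiquitinases Cyld and Otud7b added. Receptors then numbered 2 higher and 1 lower, with the TNF receptor Tnfrsf1a added as higher and Tlr2 as lower, and kinases 1 higher, Ikbke. Of 8 ligands listed, 5 were measured and 0 rose or fell, with group means of at most 24.9 normalized counts.

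Known NF-κB target genes moved in both directions. Of 26 listed, 24 were measured, 4 rose and 8 fell against vehicle, with a median log2 fold change of -0.63 beside -0.01 over all genes, and with the block 5 rose and 10 fell (Csf1 added as higher, Ccl7 and Mmp13 as lower). The median of -0.63 takes in sparse genes that were not called. Among them were Cxcl2, Ccl5, Ccl20, Cxcl10, Il6, Nos2, Mmp3 and Mmp9, with group means of at most 27.2 normalized counts. The largest rise was that of Lcn2, a siderophore-binding acute-phase protein, from 2.74 to 3.48 CPM with vehicle to 28.1 to 37.6 with aldosterone (log2 fold change 3.39, SE 0.11, limma adjusted p 3.94e-12). Bcl2l1, which encodes the survival factor Bcl-xL, rose by 0.96 (SE 0.052, limma adjusted p 2.49e-09), and the other risers were Saa3 (1.75) and C3 (1.64), both acute-phase or complement genes. On the falling side, the neutrophil chemokine Cxcl5 was at 18.9 to 31.7 CPM with aldosterone against 57.1 to 78.0 with vehicle, a log2 fold change of -1.47 (SE 0.12, limma adjusted p 3.77e-07). The monocyte chemokine Ccl2 was at 14.8 to 17.5 CPM against 27.0 to 31.3, a log2 fold change of -0.87 (SE 0.082, limma adjusted p 1.77e-06). The other called fallers were Ptgs2 (-1.60), the largest fall of the list, Cxcl1 (-1.07), Lif (-0.93), Icam1 (-0.75), Vcam1 (-0.57) and Gadd45b (-0.21). For Lcn2, Cxcl5 and Ccl2 the aldosterone libraries overlapped with neither vehicle nor spironolactone.

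**Figure D5:**
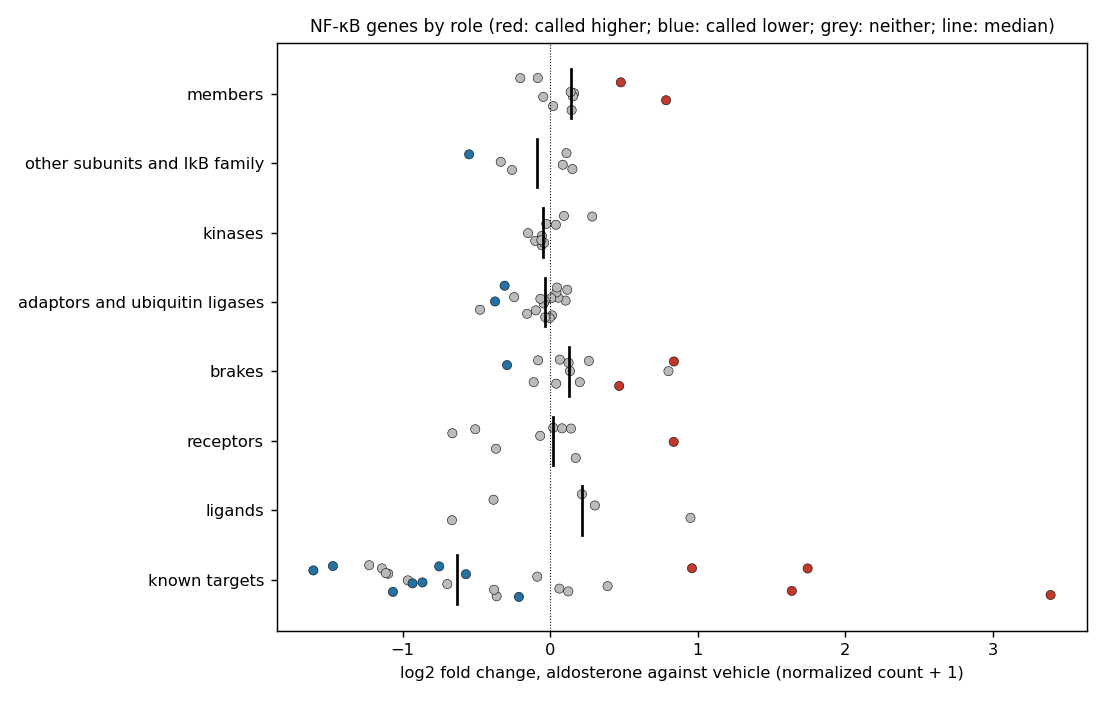
Log2 fold change of aldosterone against vehicle for the 10 members and for the measured genes of 7 lists ordered by role, with red for genes called higher, blue for genes called lower and a line at each median. The median of the known targets lies at -0.63 with 4 red and 8 blue points, while the kinases hold no coloured point.

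Steroid-responsive genes were read in the same libraries. Of 6 such genes, 4 rose and 1 fell. Fkbp5, a chaperone partner of steroid receptors, rose by 4.26 on the log2 scale (SE 0.082, limma adjusted p 4.02e-15) and Tsc22d3, which encodes GILZ, a protein known to bind NF-κB, rose by 2.69 (SE 0.051, limma adjusted p 4.02e-15). The glucocorticoid receptor gene Nr3c1 was at 87.4 to 95.2 CPM with aldosterone against 114 to 127 with vehicle, with a log2 fold change of -0.41 (SE 0.054, limma adjusted p 6.48e-05). The mineralocorticoid receptor gene Nr3c2 was sparse, at 0.324 to 0.934 CPM with aldosterone against 0.703 to 2.40 with vehicle. In normalized counts it was at 14.5 ± 5.83 against 37.5 ± 20.8, a log2 fold change of -1.21 (SE 0.42, limma adjusted p 0.0853, and 0.00794 with the block). Which receptor aldosterone acted through was not tested.

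Against spironolactone the same lists gave 0 higher and 1 lower among other subunits, 1 and 0 among kinases (Ikbke), 0 and 2 among adaptors (Traf3 and Irak2), 3 and 1 among brakes (Irak3, Zc3h12a and Otud7b against Rnf11), 2 and 0 among receptors (Il1rap and Il1r1), 0 and 0 among ligands and 4 and 8 among targets, with a median of -0.46 for the targets. The shares called in this comparison were 4.93% higher and 3.96% lower over all genes, or 8.39% and 6.78% over those with a mean of at least 10. Traf5, which fell against vehicle, had a log2 fold change of -0.29 there (limma adjusted p 0.081, and 0.0335 with the block). Between spironolactone and vehicle 0 genes of any list were called by limma without the block, and with it the pathway lists held 1 call, Il1r1, which was lower with a log2 fold change of -0.27 (adjusted p 0.00745).

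Over the 12 libraries, the genes whose log2 CPM ran most like that of Nfkbia among 11221 genes averaging 100 reads or more were Rgcc (Pearson r = 0.992), a cell-cycle regulator, Per1 (0.991), a clock gene and steroid target, and Foxred2 (0.991), an oxidoreductase of the endoplasmic reticulum. For Nfkbiz they were the complement gene C3 (0.971), the aminopeptidase gene Lnpep (0.970) and the lysosomal sulfatase gene Ids (0.970). These 6 values describe libraries that share the difference between aldosterone and the other treatments, and all 6 genes were called higher against vehicle, by 0.26 in Lnpep to 2.31 in Rgcc on the log2 scale.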

How the data were processed

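Each deposited table held signal values, normalized counts that the authors obtained with size factors, for 1 pair of treatments. The authors' own log2 values and p-values, which hold their DESeq2 comparison, were deposited beside them and not used, and gene lengths came from the same tables. Submitters' notes name HISAT2 2.0.5, featureCounts 1.5.0-p3 and build mm39, the methods text names mm9. Gene starts equalled those of an mm9 annotation for 8 of 20676 matched genes, so positions are given as mm39. The setting for strand was not given in the sources used here.

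The 10 members, the lists and the tests were chosen with earlier results of these data known. Genes named from a list were the 2 smallest adjusted p-values per direction in aldosterone against vehicle. Further list genes (Saa3, C3, Nr3c2, the other falling or sparse targets and those added by the block or against spironolactone) were named after their values were seen. Each pair of treatments was compared within its own table (27319, 27631 and 27598 genes) with limma 3.58.1 in R 4.3.3. The fit was on log2(normalized count + 1) with a trended prior, without covariates and with Benjamini-Hochberg adjustment over all genes. The 1 added to each count understates changes of low genes. Calls were made where the adjusted p did not exceed 0.05. Since the tables hold normalized values, limma replaced the edgeR test planned for raw counts. Reads were recovered from the step of each column (100.0% of values whole multiples within 0.001). In 2 columns whose step was within 0.01 of 1, the library's reads came from its other table. CPM values are these reads over TMM-scaled totals. DESeq2 1.42.0 and edgeR 4.0.16 on recovered reads, where 1470 and 1198 genes of the tables with spironolactone had none and were left out, were among the alternatives, with other scaling, pseudocount of 0.5, a minimum mean of 10, all 3 treatments fitted together, each library left out and a block. Scripts were tested on simulated data.

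Libraries with the same sample number deviated together from their group means (mean r 0.218 over 24 pairs, lowest 0.132, over 15310 genes), while those with the same biological replicate number did not (mean r -0.00568), so the sample number was used as the block. Listed genes without a row (Tlr4, Tnf, Il1b and Cd40lg among them) were not analysed here.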

Additional observations from a re-analysis of the deposited data

Results flagged for a closer look

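In groups of 4 libraries, the highest library of Nfkbia was marked as an outlier with 2 treatments. It was at 54.2 CPM with aldosterone (library 2_1, the others 51.8 to 52.2) and at 34.9 CPM with spironolactone (library 2_1, the others 31.2 to 31.8). For Ikbkb the vehicle library 2_2 was marked as high at 42.5 CPM (the others 37.7 to 38.2). Its spironolactone library 2_1 was marked as low at 39.8 CPM (the others 41.8 to 42.0). These were 4 of 30 groups examined, and chance marks about 1 in 20. The Nfkbia difference between aldosterone and vehicle was between 0.76 and 0.81 on the log2 scale with any 1 library left out.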

How the results depend on the processing

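Of 480 alternative fits of single members over the 3 comparisons, 454 kept the direction and the side of the threshold, 7 passed it newly, 0 lost it and 19 changed sign, all in members not called. The 7 were Nfkb1 and Relb against vehicle and Nfkb1 against spironolactone under the replicate block and with libraries summed per sample number, and Ikbkb without vehicle library 2_2. The sign changes came with 1 library left out, where log2 fold changes ran from -0.0196 to 0.0700 for Rela and -0.18 to 0.0339 for Tnfaip3 against vehicle and -0.0284 to 0.0467 for Rela against spironolactone, and between spironolactone and vehicle from -0.0264 to 0.0493 for Nfkb1, -0.0136 to 0.0501 for Rela, -0.0749 to 0.0121 for Relb and -0.0215 to 0.0424 for Nfkbib, and with summed libraries in Nfkb1 (-0.0012) and Nfkbib (-0.00011). Members called lower against vehicle numbered 1 under both of these paired fits. Nfkbia had an adjusted p of at most 0.000202 and Nfkbiz of at most 0.00985 against vehicle with any setting run.

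Counts over all genes moved more. Under the replicate block and with summed libraries, aldosterone against vehicle gave 2371 and 2380 higher and 2192 and 2203 lower, aldosterone against spironolactone 2095 and 2044 higher and 1879 and 1802 lower, and spironolactone against vehicle 63 and 319 higher and 34 and 170 lower, where DESeq2 gave 12 higher and 1 lower. The pairing comes from the sample number in the labels. With 1 library left out, aldosterone against vehicle gave 993 to 1262 higher and 773 to 984 lower, and aldosterone against spironolactone 897 to 1037 and 665 to 828, fits with fewer samples. The higher count moved by over 1.5 times without aldosterone libraries 1_2 and 2_1 or vehicle library 1_2 (1026) in the first and without aldosterone 2_1 or spironolactone 2_2 in the second, and the lower count did so without any 1 library but aldosterone 1_1 in the first and without any but aldosterone 1_1 or spironolactone 1_2 in the second. Scaling moved the median of all genes by at most 0.0068. Tnfaip3, with 117 to 267 reads, had the least precise values.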
